A study of Mus musculus with 6 samples.

Results

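The genes described here encode 9 transcription factors tied to self-renewal or early fate choice of haematopoietic stem cells: Hlf, Mecom, Prdm16, Etv6, Gfi1b, Myb, Nfix, Nkx2-3 and Zbtb16. They were picked by gene symbol, lie outside the stem cell network known as the heptad, and are 9 of the 52183 genes with a deposited value. Transcripts were measured by RNA sequencing of stem cells that had been purified by flow cytometry from the bone marrow of female mice aged 4 months. There were 3 libraries labelled Thbs1 knockout and 3 labelled control, and the comparison asks what loss of Thbs1, the gene of the secreted protein thrombospondin-1, does to these cells. The labels give neither the Thbs1 allele nor the strain, and they do not say that each library came from another animal, so the p-values rest on library-to-library spread that could be technical in part.

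Thbs1 itself had 10.8, 8.5 and 7.68 FPKM (fragments per kilobase of exon, scaled to the mapped total of the library) in the libraries labelled knockout, against 4.12, 13.8 and 2.33 FPKM in the control libraries. The targeted transcript was thus not lower under the knockout label (log2 change 0.65 ± 0.43 SE, limma adjusted p = 0.503). Without control library 2, which had the highest value, it was called higher (1.26 ± 0.21 SE, adjusted p = 0.0343). Without any other single library the change was 0.19 to 0.75 and not called (adjusted p 0.542 to 0.851). The deposited values do not show which part of the gene the reads came from, so every direction below is that of the labels. The FPKM steps of short genes correspond to depths between 25740000 and 30890000 reads in the libraries labelled knockout and between 22730000 and 25910000 reads in the control libraries. The summed FPKM of a library lay between 329434 and 339652 under the knockout label and between 373903 and 408725 under the control label, without overlap.

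A haematopoietic stem cell must both copy itself and supply every blood lineage, and transcription factors hold that balance. HLF, a basic leucine zipper protein of the PAR family, marks the stem cell compartment and helps to keep it quiescent. MECOM and PRDM16 are zinc finger proteins that share a PR domain, and mouse stem cells without either are lost over time. ETV6 is an ETS-family repressor that adult bone marrow stem cells need, and GFI1B is a repressor that recruits the LSD1 and CoREST complex and restrains stem cell expansion. MYB drives proliferation and differentiation of progenitors, and NFIX, a nuclear factor I protein, supports survival of stem and progenitor cells after transplantation. NKX2-3 is a homeobox factor best known from the developing spleen and gut, and ZBTB16, or PLZF, is a BTB zinc finger factor known from natural killer T cells and germline stem cells.

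RefSeq (GRCm38.p6) gave promoter windows for 8 of the 9 genes, 12 windows in all, of which 4 are shown, each covering the 250 bases before an annotated start, 5′ to 3′ on the gene's strand. Hlf and Etv6 are shown because they are the genes of the set whose libraries did not overlap between the labels, and Mecom because its reads sum transcripts from separate starts. The distal Mecom start gives the long MDS1-EVI1 form with the PR domain and the proximal start gives EVI1. Capitals mark matches to any motif searched. The Hlf window is chr11:90390918-90391167 on the minus strand and the Etv6 window is chr6:134035450-134035699 on the plus strand. The distal Mecom window is chr3:30509760-30510009 and the proximal one is chr3:30013205-30013454, both on the minus strand.
Hlf: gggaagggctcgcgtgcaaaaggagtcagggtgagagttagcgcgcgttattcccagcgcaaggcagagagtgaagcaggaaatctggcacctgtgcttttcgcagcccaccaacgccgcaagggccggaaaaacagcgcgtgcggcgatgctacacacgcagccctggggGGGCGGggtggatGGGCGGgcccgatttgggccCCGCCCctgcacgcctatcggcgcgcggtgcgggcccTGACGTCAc
Etv6: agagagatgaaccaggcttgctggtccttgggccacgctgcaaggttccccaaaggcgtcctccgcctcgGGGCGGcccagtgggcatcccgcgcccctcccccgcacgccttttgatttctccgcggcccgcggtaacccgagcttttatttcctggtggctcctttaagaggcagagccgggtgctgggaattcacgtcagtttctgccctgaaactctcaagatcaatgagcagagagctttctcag
Mecom distal: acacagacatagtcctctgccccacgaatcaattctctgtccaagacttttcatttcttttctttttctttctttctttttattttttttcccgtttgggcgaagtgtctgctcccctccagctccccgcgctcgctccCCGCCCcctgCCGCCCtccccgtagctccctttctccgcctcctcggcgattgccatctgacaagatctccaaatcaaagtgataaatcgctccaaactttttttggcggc
Mecom proximal: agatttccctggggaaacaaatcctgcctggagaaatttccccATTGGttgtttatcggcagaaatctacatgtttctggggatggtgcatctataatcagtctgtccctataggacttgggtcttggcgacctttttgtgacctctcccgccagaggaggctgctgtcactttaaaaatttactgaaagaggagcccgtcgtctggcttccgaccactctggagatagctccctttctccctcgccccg

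The Hlf window had a GC content of 67.2% and 26 CpG dinucleotides, the Etv6 window 60.4% and 16, the distal Mecom window 50.8% and 14, and the proximal Mecom window 50.4% and 8. Over all 32851 windows of the same length the median GC content was 52.4% and the median number of CpG dinucleotides was 6. The motifs searched on both strands were an ETS core CCGGAAG (in 6.91% of all windows), a GATA site AGATAA (9.99%), a RUNX site TGTGGT (14%) and the E-boxes CAGCTG (13%) and CACGTG (6.02%). The others were a PAR leucine zipper site TTANNTAA (5.43%), a MYB site CNGTTA (19.8%), CCAAT (33.8%), the GC box GGGCGG (32.7%), TATAAA (12.4%) and the cyclic AMP response element TGACGTCA (1.55%). Within the 4 windows printed no matches overlap. Hlf has 3 GC boxes and the cyclic AMP response element next to its start, Etv6 has 1 GC box, the distal Mecom window has 2 GC boxes and the proximal one has 1 CCAAT box. Of the 12 windows of the set, 8 hold a GC box, 7 hold CCAAT, 1 holds the PAR site (in Nfix), and none holds the E-box CACGTG or the letters searched for ETS, MYB, GATA or TATA-box sites.

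All 9 genes were detected in all 6 libraries, over a wide span of levels. Gfi1b, Etv6 and Hlf were the most abundant, with means over the 6 libraries of 83.9, 80.6 and 68.3 FPKM, above those of 94.6%, 94.3% and 92.9% of the 12555 genes tested. Myb followed at 45.3 FPKM and Nkx2-3 at 32.4 FPKM, then Nfix at 15.15 FPKM and Mecom at 12.35 FPKM. Prdm16 averaged 5.21 FPKM and Zbtb16 was lowest at 1.67 FPKM, above 11% of tested genes. FPKM is scaled by exon length, so these levels can be set side by side, but only roughly. The merged exons of all annotated transcripts span 12427 bases for Mecom (17 transcripts) and 1830 for Gfi1b (4 transcripts). A length that counts exons not used in these cells lowers FPKM, by an amount that differs between genes. The ranges over the 6 libraries overlapped between Gfi1b and Etv6, between Etv6 and Hlf and between Nfix and Mecom, and all other neighbours in this order were apart in every library. Read numbers recovered from the values ran from 10433 to 12740 per library for Hlf and from 10835 to 14225 for Etv6, down to between 167 and 315 for Zbtb16.

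**Figure D1:**
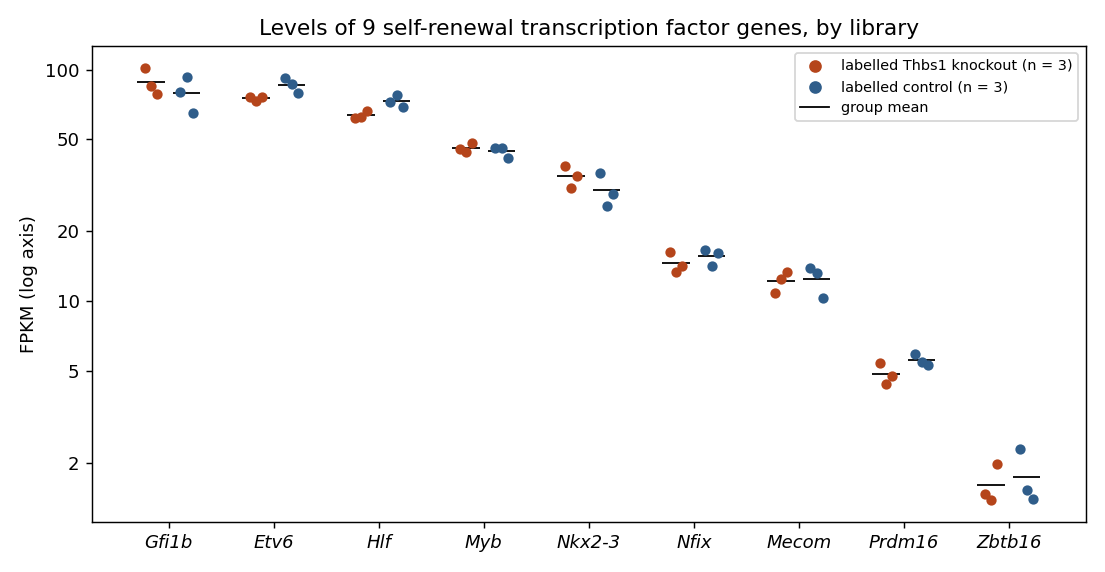
FPKM (log axis) of the 9 factor genes in each library, with the libraries labelled Thbs1 knockout in red on the left of each pair, the control libraries in blue, and bars at the group means (n = 3 each). The levels span from Zbtb16 near 1.67 FPKM to Gfi1b near 83.9 FPKM, and the colours separate without overlap for Etv6 and Hlf, which they do not after rescaling to TPM.

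None of the 9 factor genes was called different between the labels. The test was limma's on the log2(FPKM + 1) scale, and a gene was called at a Benjamini-Hochberg adjusted p below 0.05. All 9 passed the expression filter, 0 were called higher and 0 lower, and 1.56% of the 12555 tested genes were called (71 higher and 125 lower). At an unadjusted p below 0.05 there were 2 members, both lower, where 16.4% of all tested genes passed. The same 2 members, Hlf and Etv6, were the ones whose libraries did not overlap between the labels, a state that 22.8% of all tested genes showed, and both overlapped and changed sign after rescaling to TPM, described further on. A count of 2 of 9 is near both background shares. The median log2 change of the 9 genes was -0.06, with 6 of 9 below 0, beside 0.01 for all tested genes, of which 5851 were below 0. The 95% intervals of the 9 genes reached from -0.48 to 0.47 on the log2 scale, or from 0.719 to 1.39 as folds of FPKM + 1, with FPKM as deposited. After rescaling to TPM they reached from -0.48 to 0.71, or folds from 0.718 to 1.63, so the size of change the data leave room for depends on the scale. These are bulk libraries, in which fewer cells with a transcript and less transcript per cell cannot be told apart.

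Among the factors of stem cell maintenance, Hlf (ENSMUSG00000003949, chromosome 11, 90336536 to 90390895, minus strand, GRCm38) had 61.7, 62.7 and 66.1 FPKM in the libraries labelled knockout, against 72.8, 77.6 and 68.7 FPKM in control libraries. Each library labelled knockout was below each control library, the closest being 66.1 and 68.7 FPKM. After rescaling to TPM they were 182, 186 and 201 in the libraries labelled knockout and 195, 206 and 168 in control libraries, and overlapped. The means were 63.5 ± 2.30 FPKM under the knockout label and 73.05 ± 4.46 FPKM in controls (SD, n = 3 each), a ratio of 0.869, and the log2 change was -0.20 ± 0.07 SE (95% interval -0.36 to -0.04). The adjusted p was 0.201 and the exact two-sided permutation p was 0.1, the smallest that 3 against 3 libraries allow. The gene ranked 1226 by p among those tested.

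Mecom (ENSMUSG00000027684, chromosome 3, 29951296 to 30548008, minus strand) had 10.8, 12.5 and 13.3 FPKM in the libraries labelled knockout, against 13.9, 13.3 and 10.3 FPKM in control libraries. The groups overlapped, each with 1 library below the rest. The means of 12.2 ± 1.29 FPKM under the knockout label and 12.5 ± 1.91 FPKM in controls gave a log2 change of -0.03 ± 0.12 SE (95% interval -0.30 to 0.25, adjusted p = 0.952), and the sign turned positive without knockout-labelled library 1 (0.05) or control library 1 (0.05) or 2 (0.02). Because the annotation merges 17 transcripts of this locus, the value does not separate the MDS1-EVI1 form from EVI1.

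Prdm16 (ENSMUSG00000039410, chromosome 4, 154316125 to 154636873, minus strand) had 5.42, 4.4 and 4.76 FPKM in the libraries labelled knockout, against 5.92, 5.45 and 5.29 FPKM in control libraries. Knockout-labelled library 1 lay above control library 3, and the other knockout-labelled libraries were the lowest of all. The means were 4.86 ± 0.517 FPKM under the knockout label and 5.55 ± 0.327 FPKM in controls, with a log2 change of -0.16 ± 0.11 SE (95% interval -0.42 to 0.09, adjusted p = 0.522). Its ratio of means, 0.875, was close to those of Hlf and Etv6, with a wider interval that included 0.

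Of the repressors and lineage factors, Etv6 (ENSMUSG00000030199, chromosome 6, 134035700 to 134270158, plus strand) had 76.3, 73.0 and 76.5 FPKM in the libraries labelled knockout, against 91.8, 86.4 and 79.7 FPKM in control libraries. All 3 knockout-labelled libraries lay below the lowest control library, and they varied less among themselves, with a coefficient of variation of 2.64% against 7.05% in controls. As TPM the values overlapped, at 225, 216 and 232 in the libraries labelled knockout and 245, 229 and 195 in control libraries. The means were 75.3 ± 1.99 FPKM under the knockout label and 85.9 ± 6.06 FPKM in controls, a ratio of 0.876, and the log2 change was -0.19 ± 0.07 SE (95% interval -0.35 to -0.03). Here too the change was not called (adjusted p = 0.234, exact two-sided permutation p = 0.1). The kit does not mark strand, and 135 of the 5983 exon bases of Etv6 overlap the antisense gene Gm17089, which did not exceed 3.51 FPKM.

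Gfi1b (ENSMUSG00000026815, chromosome 2, 28609450 to 28621982, minus strand) had 102, 84.7 and 78.8 FPKM in the libraries labelled knockout, against 79.9, 92.7 and 65.2 FPKM in control libraries. The groups overlapped widely, and the highest value was knockout-labelled and the lowest a control. The means of 88.6 ± 12.2 FPKM under the knockout label and 79.3 ± 13.7 FPKM in controls gave a log2 change of 0.16 ± 0.13 SE (95% interval -0.13 to 0.46, adjusted p = 0.59). Myb (ENSMUSG00000019982, chromosome 10, 21124935 to 21160984, minus strand) had 45.4, 44.2 and 48.4 FPKM in the libraries labelled knockout, against 46.0, 45.9 and 41.7 FPKM in control libraries. Its groups overlapped, with means of 46.0 ± 2.165 FPKM under the knockout label, 44.5 ± 2.46 FPKM in controls and a log2 change of 0.05 ± 0.07 SE (95% interval -0.12 to 0.21, adjusted p = 0.806).

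Nkx2-3 (ENSMUSG00000044220, chromosome 19, 43612325 to 43615892, plus strand), the homeobox gene of the set, had 38.2, 30.9 and 34.8 FPKM in the libraries labelled knockout, against 35.7, 25.8 and 29.0 FPKM in control libraries. Control library 1 reached above both lower knockout-labelled values, so the groups overlapped. The means of 34.6 ± 3.64 FPKM under the knockout label and 30.2 ± 5.085 FPKM in controls gave the highest log2 change of the set, 0.20 ± 0.12 SE (95% interval -0.07 to 0.47, adjusted p = 0.456). Nfix (ENSMUSG00000001911, chromosome 8, 84699876 to 84800344, minus strand) had 16.3, 13.4 and 14.2 FPKM in the libraries labelled knockout, against 16.7, 14.1 and 16.2 FPKM in control libraries. Its groups overlapped, with a log2 change of -0.10 ± 0.10 SE (95% interval -0.32 to 0.13, adjusted p = 0.691). The exons of Nfix share 137 of 7351 bases with G430095P16Rik on the other strand, which reached 13.6 FPKM, and 4 bases with Lyl1.

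Zbtb16 (ENSMUSG00000066687, chromosome 9, 48654297 to 48836222, minus strand) had 1.46, 1.38 and 1.97 FPKM in the libraries labelled knockout, against 2.30, 1.52 and 1.39 FPKM in control libraries. The groups overlapped, and the highest library of each stood apart from the other two. This low gene had the widest interval of the set, from -0.48 to 0.35 around a log2 change of -0.06 ± 0.18 SE (adjusted p = 0.907), and without control library 1 the sign turned (0.08).

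The direction of 6 of the 9 genes turned under TPM, while under median-of-ratios and quantile scaling the same 6 stayed below 0. Hlf and Etv6 were at -0.203 and -0.1917 under median of ratios and at -0.2479 and -0.2246 under quantile scaling. Zbtb16 was barely below 0 under quantile scaling (-4e-04). The median change of all genes was 0.0094 under median of ratios and 0.0109 under quantile scaling. When each library was rescaled to TPM, which brings every library to the same total, the median change of all genes became 0.19 on the log2 scale, and 2016 genes were called higher and 128 lower. Thus 94% of calls were higher under TPM, against 36.2% with FPKM as deposited. The cutoff of 1 was applied to the TPM values, so 15277 genes were tested there, against 12555 with FPKM as deposited. No member was called under TPM, and none had a log2 change below 0. Hlf came to 0.0026 ± 0.086 SE (adjusted p = 0.988) and Etv6 to 0.0144 ± 0.088 SE (adjusted p = 0.931), which are -0.19 and -0.18 when measured from the median of all genes. Nkx2-3 at 0.41 ± 0.13 SE had the smallest adjusted p of any member under any setting, 0.074, followed under TPM by Myb at 0.25 (0.0964) and Gfi1b at 0.37 (0.129). Measured from the median of all genes, Nkx2-3 was 0.21 higher, Gfi1b 0.18 higher and Myb 0.06 higher. With FPKM as deposited and under TPM, Hlf, Etv6 and Prdm16 had the lowest of the 9 changes and Nkx2-3, Gfi1b and Myb the highest. TPM multiplies all genes of a library by the same factor, so this order could hardly differ between the scales and is no check.

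**Figure D2:**
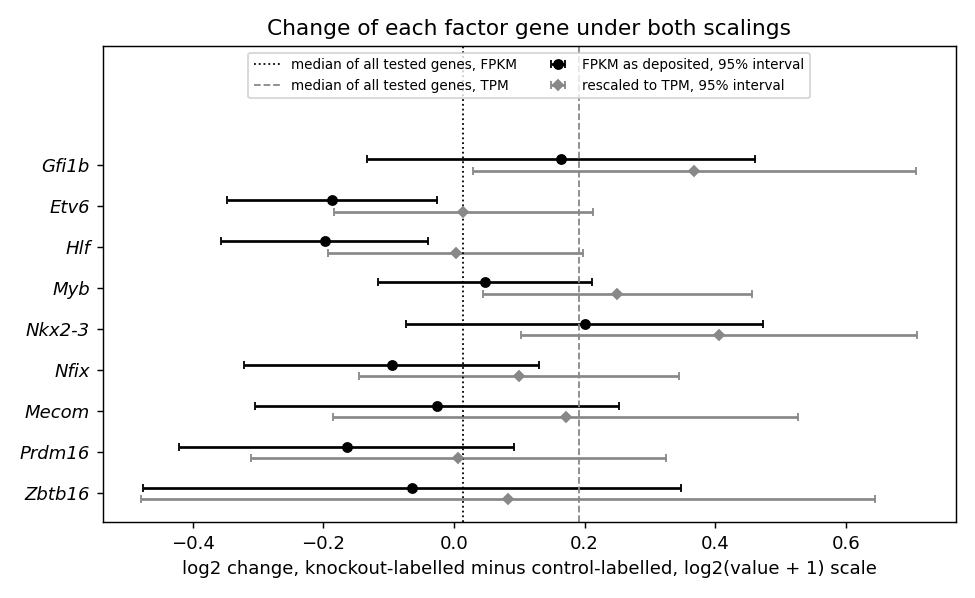
Log2 change of each factor gene, libraries labelled knockout minus control, on the log2(value + 1) scale, with 95% intervals from limma for FPKM as deposited (black) and after rescaling to TPM (grey). Vertical lines mark the median of all tested genes on each scale (0.01 and 0.19); Hlf and Etv6 lie left of the black line with FPKM and near 0, left of the grey line, with TPM.

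Ratios between members within a library do not depend on the scaling. Of the 36 ratios among the 9 genes, 6 did not overlap between the labels, where 21.7% of the ratios between any pair of tested genes above 0 FPKM in every library did not. That is no more than the background, and all 6 involve Hlf, Etv6 or Nkx2-3, so the values below are a description. Each of the 6 had the smallest exact two-sided permutation p of 0.1 (adjusted p = 0.554 over the 36). Hlf over Myb was 1.36, 1.42 and 1.36 in the libraries labelled knockout, against 1.58, 1.69 and 1.65 in control libraries. Etv6 over Myb was 1.68, 1.65 and 1.58 under the knockout label, against 2.00, 1.88 and 1.91 in control libraries. Both ratios were lower in every knockout-labelled library and varied little within a group. The largest difference was in Hlf over Nkx2-3, with 1.62, 2.03 and 1.9 in the libraries labelled knockout, against 2.04, 3.01 and 2.37 in control libraries, a mean log2 difference of -0.41. Etv6 over Nkx2-3 was also apart (-0.40), and Nkx2-3 over Nfix (0.31) and over Prdm16 (0.40) were higher in every knockout-labelled library. Etv6 over Hlf, by contrast, was 1.24, 1.16 and 1.16 in the libraries labelled knockout, against 1.26, 1.11 and 1.16 in control libraries (exact two-sided permutation p = 0.9), so the ratio between the pair that was lower differed by less than its spread.

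**Figure D3:**
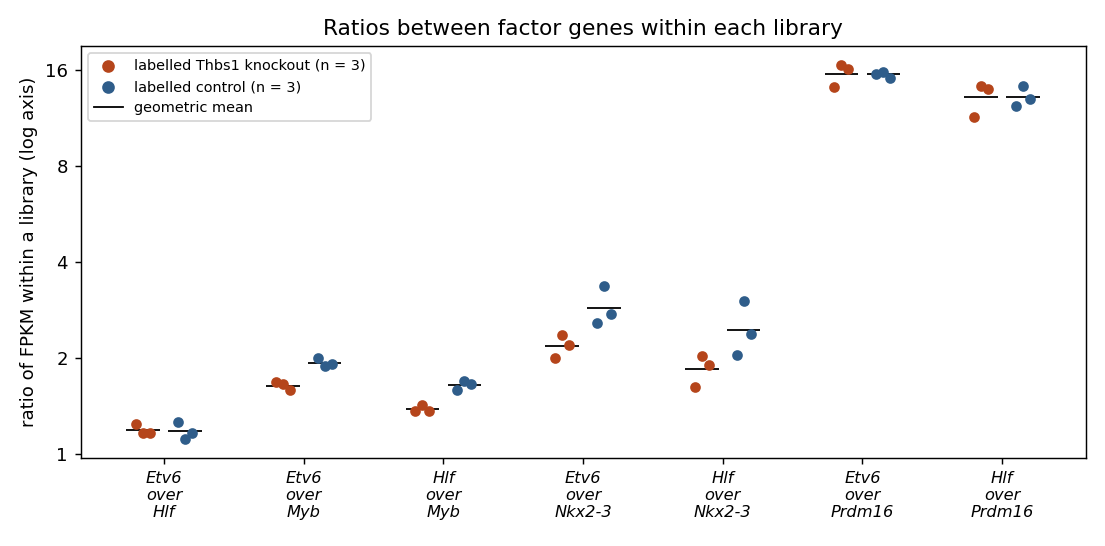
Ratio of FPKM within a library (log axis) for 7 pairs of factor genes, with the libraries labelled Thbs1 knockout in red on the left, control libraries in blue and bars at the geometric means (n = 3 each). The ratios of Etv6 or Hlf to Myb or Nkx2-3 are lower in all knockout-labelled libraries, while Etv6 over Hlf, Etv6 over Prdm16 and Hlf over Prdm16 overlap.

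Within their protein families, Hlf, Gfi1b and Myb had the highest FPKM, under the limit on exon length given above. Etv6 and Mecom had ranges that overlapped that of their most abundant relative, and Nfix lay below Nfic. Hlf averaged 68.3 FPKM over the 6 libraries, against 7.49 FPKM for Tef, 3.39 for Dbp and 3.17 for Nfil3, its leucine zipper relatives. Gfi1b at 83.9 FPKM stood far above its paralog Gfi1 at 2.86 FPKM, and Myb at 45.3 FPKM above Mybl2 at 9.51 and Mybl1 at 0.20 FPKM. Among 26 ETS genes, Etv6 at 80.6 FPKM lay beside the heptad gene Fli1 at 83.4 FPKM, with overlapping ranges, and above Elf1 at 49.1 and Spi1 at 31.6 FPKM. Prdm4 had 12.5 FPKM beside 12.35 for Mecom, with overlapping ranges, and Nfic had 23.2 FPKM beside 15.15 for Nfix.

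The share of Hlf in the summed FPKM of its 4-gene family, which scaling cannot move, was 79.4%, 80.8% and 81.6% in the libraries labelled knockout, against 85.3%, 85.5% and 84.4% in control libraries. Every knockout-labelled library was lower, with means of 80.6% ± 1.1 in knockout-labelled and 85.05% ± 0.599 in control libraries (SD, n = 3 each). The exact two-sided permutation p was 0.1, with an adjusted p of 0.45 over the 6 families compared, and the share follows a gene already seen not to overlap, so it is a description. The Etv6 share among ETS genes was 21.2%, 20.2% and 20.1% in the libraries labelled knockout, against 22.3%, 20.8% and 21.1% in control libraries. These groups overlapped (exact two-sided permutation p = 0.3, adjusted p = 0.45). The shares of Gfi1b (96.4% ± 0.436 under the knockout label, 97.1% ± 0.904 in controls) and Myb (82.3% ± 2.72 under the knockout label, 82.4% ± 3.21 in controls) overlapped between the groups. So did those of Nfix (37.8% ± 2.49 under the knockout label, 35.7% ± 2.11 in controls) and Mecom (27.6% ± 2.65 under the knockout label, 27.2% ± 2.10 in controls). Beside the Hlf share, Tef had 8.53 ± 0.664 FPKM in the libraries labelled knockout and 6.46 ± 0.613 FPKM in control libraries, a log2 change of 0.35 ± 0.11 SE that was not called (adjusted p = 0.147).

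**Figure D4:**
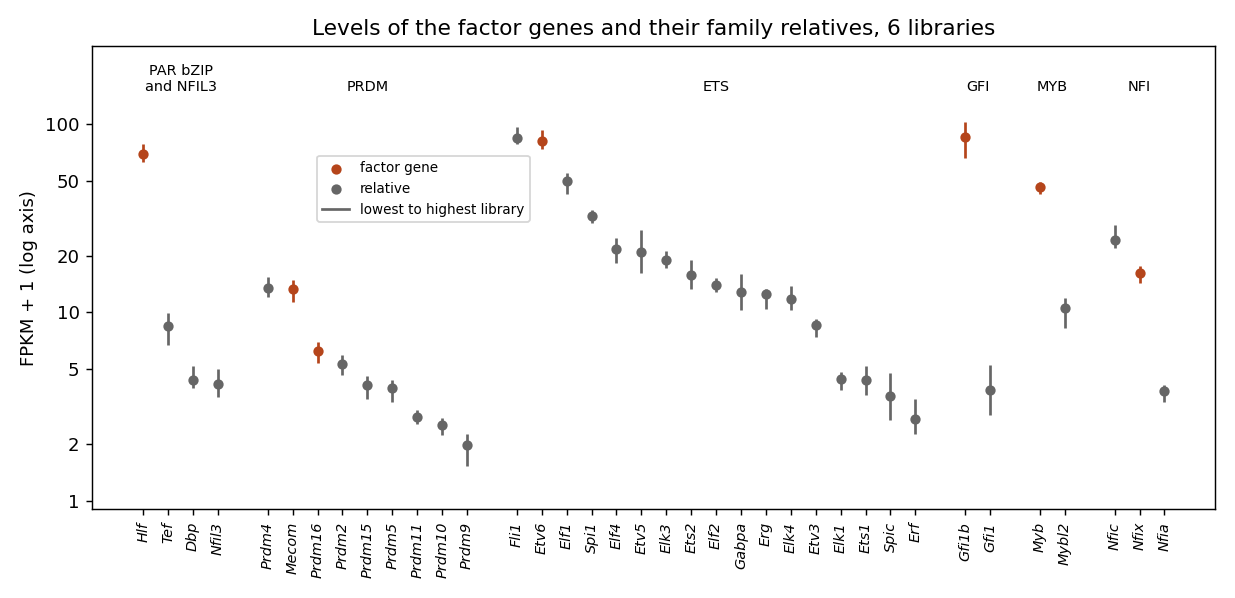
Level of each factor gene (red) and its family relatives (grey) as FPKM + 1 on a log axis, with points at the mean of the 6 libraries and bars from the lowest to the highest library. Genes below 1 FPKM in every library are not drawn. Hlf, Gfi1b and Myb stand above all their relatives, Etv6 lies beside Fli1 and Mecom beside Prdm4, and Nfix lies below Nfic.

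The genes whose levels followed each member most closely over the 6 libraries were sought among tested genes with a mean of at least 5 FPKM, by Pearson r of log2(FPKM + 1). These are descriptions over 6 points that share depth and group, the highest of 7741 or 7742 genes compared, and no p is given. For Hlf they were Zfand4 (r = 0.998) and Impact (0.995), and for Etv6 Marchf6 (0.993) and Elk4 (0.991). Mecom was followed by Fbxo45 (0.996) and Sf3b1 (0.991), Prdm16 by Ppp1r37 (0.989) and Gp5 (0.986), and Gfi1b by Pex5 (0.992) and Slc44a2 (0.989). Myb had Pfkm (0.992) and Coro1c (0.991), Nkx2-3 had Rbm15b (0.990) and Jun (0.976), Nfix had Tle5 (0.986) and Csad (0.977), and Zbtb16 had Tmem71 (0.989) and Csnk1a1 (0.988). None of these genes was called. Among the 36 pairs of members, the highest r were 0.859 between Etv6 and Hlf, 0.845 between Etv6 and Prdm16 and 0.803 between Nfix and Prdm16. The lowest was -0.595 between Hlf and Nkx2-3. Etv6 and Hlf both separated by label, so their r in part repeats that difference.

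The genes around the 9 factors were read from the same fit, beside the 1.56% of all tested genes called. The list of 36 family relatives differs from the families above. It holds Cebp and Zbtb genes and leaves out ETS genes such as Spi1, Spic, Elk1, Elk3, Elk4 and Erf. Of those left out, Spic (limma adjusted p = 0.185), Elk4 (0.25) and Spi1 (0.256) were lower without overlap and not called. Elk1 was higher without overlap and not called (0.608). Of the 36 listed relatives, 30 were tested and 0 were called (4 at an unadjusted p below 0.05, median log2 change -0.01). The smallest p was that of the ETS gene Etv5, with 16.6 ± 1.41 FPKM in the libraries labelled knockout and 23.3 ± 2.855 FPKM in control libraries (log2 change -0.46 ± 0.10 SE, adjusted p = 0.0703), and it was called when genes with a mean of at least 5 FPKM were tested. Next came Ets2, another ETS gene, with 16.6 ± 1.23 FPKM in the libraries labelled knockout and 12.95 ± 0.513 FPKM in control libraries (adjusted p = 0.0992), and Tef as given above. Of 23 cofactors that the members are known to bind, such as subunits of the LSD1 complex, 0 were called (2 at an unadjusted p below 0.05, median -0.03). The smallest p values belonged to the histone methyltransferase gene Ehmt2 (22.9 FPKM on average in knockout-labelled and 19.9 FPKM in control libraries, adjusted p = 0.26), to Hmg20b (13.6 FPKM knockout-labelled, 16.1 FPKM control, 0.275) and to Zmym3 (7.13 FPKM knockout-labelled, 8.36 FPKM control, 0.392). Of 17 genes reported downstream of a member, those called included Myc, which was higher, and the median log2 change over the list was -0.02. Those next in order were the cytokine signalling inhibitor Socs1 (16.1 FPKM knockout-labelled, 12.96 FPKM control, adjusted p = 0.104), the survival gene Bcl2 (7.3 FPKM knockout-labelled, 9.18 FPKM control, 0.339) and the mitochondrial fusion gene Mfn2 (20.7 FPKM knockout-labelled, 18.3 FPKM control, 0.422). Tef, Ets2, Ehmt2 and Socs1 were called higher under TPM, where most calls were higher.

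Myc, the growth-promoting factor, had 387, 423 and 400.1 FPKM in the libraries labelled knockout, against 273, 248 and 225 FPKM in control libraries. Its groups were far apart (log2 change 0.70 ± 0.08 SE, adjusted p = 0.00446), and it stayed called in 14 of 15 alternatives.

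Of the 7 heptad genes, Lyl1 was called lower and 6 were not called. Lyl1, a basic helix-loop-helix factor, averaged 19.5 ± 1.87 FPKM in the libraries labelled knockout and 29.0 ± 1.02 FPKM in control libraries (log2 change -0.56 ± 0.09 SE, adjusted p = 0.0153). The call was lost with the replicate block (0.0523) and without knockout-labelled library 2 (0.0684) or 3 (0.0693) or control library 2 (0.051) or 3 (0.0523). The next were Lmo2 (605 FPKM knockout-labelled, 700 FPKM control, adjusted p = 0.199), Erg (10.8 FPKM knockout-labelled, 12.2 FPKM control, 0.435) and Gata2 (103 FPKM knockout-labelled, 91.6 FPKM control, 0.463). Of 26 other factors of stem cell maintenance or reprogramming, 25 were tested, and those called included the immediate early gene Egr1, which was higher. Egr1 averaged 16.7 ± 1.765 FPKM in the libraries labelled knockout and 10.5 ± 1.24 FPKM in control libraries (log2 change 0.63 ± 0.11 SE, adjusted p = 0.0286). That call held without control library 1 (0.0293) and was lost with the replicate block (0.0721) and without any other single library (0.0519 to 0.104). The next were Tcf15 (30.85 FPKM knockout-labelled, 22.9 FPKM control, adjusted p = 0.0645), Mycn (83.0 FPKM knockout-labelled, 118.5 FPKM control, 0.0965) and Ikzf2 (2.0 FPKM knockout-labelled, 3.12 FPKM control, 0.139). Tcf15 and Mycn were each called in 3 of 15 alternatives, both at a mean of at least 5 FPKM and with array weights. Tcf15 was also called under TPM and Mycn also without knockout-labelled library 1. Ikzf2 was called in 0 of 14.

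**Figure D5:**
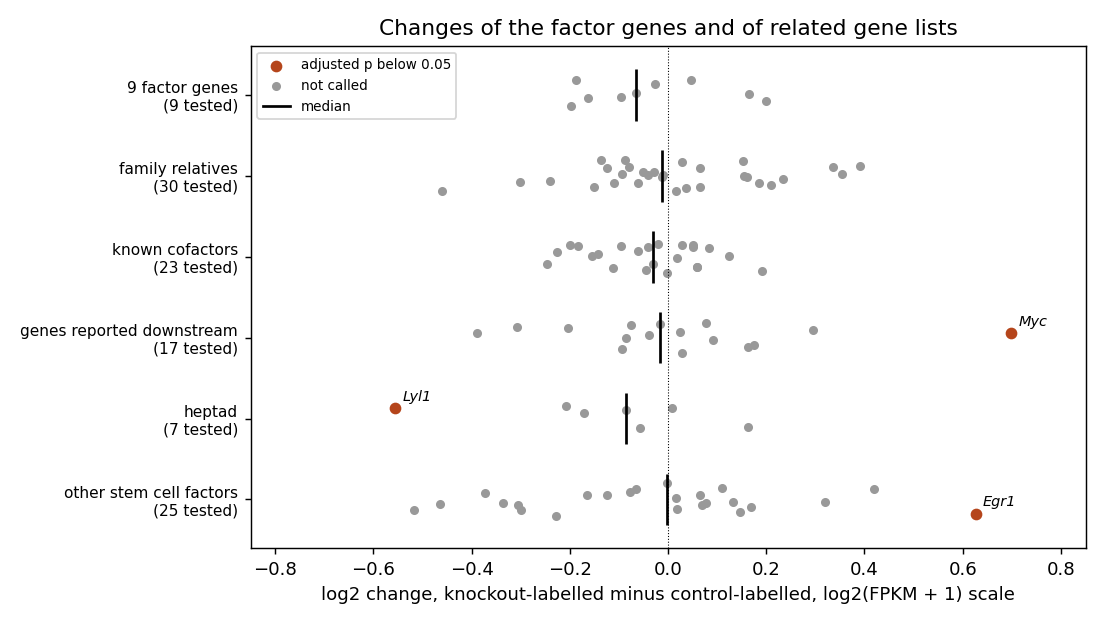
Log2 change of the 9 factor genes and of the genes of 5 related lists, libraries labelled knockout minus control, on the log2(FPKM + 1) scale, with 1 point per gene reported, red where called and a bar at each median. None of the 9 factor genes is red; the called genes drawn are Myc, Lyl1 and Egr1, and medians are over all tested genes of a list, including results not reported here.

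Markers of the sorted population and of other marrow cells were read beside these values, as summed FPKM per library. All 12 stem cell markers were tested and 1 was called lower (Ly6a), with sums of 749.8 to 843.7 in the libraries labelled knockout and 754.4 to 841.7 in control libraries. Multipotent progenitor markers summed to 42.1 to 46.9 in the libraries labelled knockout and 62.6 to 70.8 in control libraries, with 5 of 7 tested. Ikzf1 was among those called lower, and Dntt and Il7r were below 1 FPKM in every library. Megakaryocyte markers, a lineage in which Gfi1b acts, summed to 298 to 414 in the libraries labelled knockout and 419 to 531 in control libraries, with 0 of 9 called. Erythroid markers summed to 1115 to 1171 in knockout-labelled and 1114 to 1276 in control libraries, with 1 of 8 called lower (Hbb-bt). Granulocyte and monocyte markers summed to 62.2 to 74.4 in knockout-labelled and 71.4 to 98.7 in control libraries, with 0 of 4 called. Mast cell and basophil markers summed to 5.80 to 10.7 in knockout-labelled and 6.64 to 10.2 in control libraries, with 0 of 2 called. T and NK cell markers summed to 63.3 to 73.6 in the libraries labelled knockout and 85.3 to 112 in control libraries, with 1 of 3 called lower (Nkg7) and Cd3d, Cd3e, Cd3g, Cd8a and Trac below 1 FPKM in every library. B cell markers summed to 25.3 to 29.65 in knockout-labelled and 30.5 to 32.2 in control libraries, with 0 of 3 called and Cd79a, Ebf1, Igll1 and Pax5 below 1 FPKM in every library. Endothelial and stromal markers summed to 19.6 to 20.7 in knockout-labelled and 19.0 to 20.96 in control libraries, with 0 of 4 called. The part of progenitor, megakaryocyte, B and T or NK cell transcripts in the lower Hlf and Etv6 values was not tested.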

How the data were processed

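RNA of sorted stem cells (2 ng per library) was made into libraries with the SMART-Seq v4 kit for ultra low input, per the labels' protocols. STAR, edgeR and FastQC 0.11.5 are named, with the builds GRCm38 and mm10, per the submitters' processing notes; how each was used is not stated there. The authors deposited FPKM values for 52183 genes in 6 libraries, all of which matched GENCODE M21, from which positions and exon lengths were taken. FPKM divide by the total mapped, so a few abundant genes can shift all others, and no count model was run.

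Depth was read from the steps of FPKM in genes of at most 400 exon bases, where 99.47% to 99.71% of values were whole within 0.1 read. A floor of 3 reads on 1 kb of exon equals 0.0971 to 0.132 FPKM, and such values cover counting error only. Genes that reached 1 FPKM in 3 or more of 6 libraries were tested on log2(FPKM + 1), which understates changes of low genes, with limma 3.58.1 in R 4.3.3 (lmFit, eBayes with trend, two-sided, Benjamini-Hochberg threshold 0.05). The fit was tested on simulated data. Replicates were checked for copies and none was found. Alternatives were no filter, a pseudocount of 0.1, a minimum mean of 5 FPKM, TPM, median-of-ratios and quantile scaling, eBayes without trend, array weights, a replicate block and leaving out each library.

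The members and lists were chosen with earlier results of these data known. Named genes are the 9 members, Thbs1, family relatives, called genes and up to 3 with the smallest p of each list, and the 2 most similar genes of each member. Results of some genes within this rule are left out. Family shares and ratios were chosen after the values were seen, and families hold the ETS and PRDM genes of the mouse found in the deposited table.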

Additional observations from a re-analysis of the deposited data

How the results depend on the processing

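In all 15 alternatives 0 members were called higher and 0 lower, and the smallest adjusted p of any member was 0.074 (Nkx2-3, TPM). The counts over all genes, 71 higher and 125 lower, moved more. They were 8 and 16 without a filter (35246 genes tested) and 24 and 65 without an eBayes trend. Calls of higher genes numbered 112 at a mean of at least 5 FPKM (8175 genes tested) and 112 with array weights. With TPM (15277 genes tested) they numbered 2016. Leaving out 1 library gave 16 to 38 higher and 43 to 77 lower calls, with fewer libraries per fit. With the replicate block there were 27 and 54 calls. The numbers were not taken as pairs, since deviations of same-numbered libraries correlated at -0.11, 0.037 and -0.079, and not every library correlated best with its own number.

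Signs turned under TPM for Hlf (0.0026), Etv6 (0.0144), Prdm16 (0.007), Mecom (0.1711), Nfix (0.0994), Zbtb16 (0.0834) and Erg (0.0175). TPM divides by the summed FPKM of a library, which was lower in every library labelled knockout. It therefore raised values there relative to the control libraries. The sign of Myb turned under quantile normalization (-0.0067, cause not tested). Without single libraries Mecom ranged from -0.1472 to 0.0536 and Zbtb16 from -0.1628 to 0.0781. Hlf and Etv6 were below 0 in 14 of 15 alternatives each, with adjusted p from 0.129 to 0.988 and from 0.138 to 0.931. Zbtb16 was not tested at a mean of at least 5 FPKM. Among the related genes, no filter ended the calls of Myc (adjusted p = 0.108), Lyl1 (0.123) and Egr1 (0.17), and no trend those of Lyl1 (0.0616) and Egr1 (0.0708). With 3 libraries per label, changes inside the intervals given cannot be resolved.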
